A study of Mus musculus with 6 samples.

Results

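Mouse mitochondrial DNA carries a small set of genes, and the messenger RNAs of 10 of them are described here: mt-Nd1, mt-Nd2, mt-Nd4, mt-Nd5, mt-Nd6, mt-Co1, mt-Co2, mt-Co3, mt-Cytb and mt-Atp6. They were taken by gene name from the rows of the deposited count table that lie on chromosome MT, and are 10 of 54532 genes in the table. RNA was sequenced from bone-marrow-derived macrophages, which are macrophages grown in culture from bone marrow, of mice with a Tet2 knockout (3 libraries) and of wild-type mice (3 libraries). Both groups had been treated with MSU, so untreated cells are in neither group. The sources used here do not state the age, sex or strain of the mice, the Tet2 allele, or the dose and time of MSU. Nor do they say whether the libraries came from separate mice, so a p-value measures the spread among libraries and that spread may be technical.

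The mitochondrial chromosome is copied into long RNAs from both of its strands, and these are cut into single messenger, ribosomal and transfer RNAs. All of its messenger RNAs encode membrane subunits of the respiratory chain and of ATP synthase, which mitochondria translate on ribosomes of their own. The mt-Nd genes encode subunits of complex I, which takes electrons from NADH. The mt-Cytb gene encodes cytochrome b of complex III, the mt-Co genes encode the core of cytochrome c oxidase (complex IV), and mt-Atp6 encodes the proton channel subunit of ATP synthase (complex V). Another gene of chromosome MT, mt-Atp8, encodes a further subunit of ATP synthase. The remaining subunits of these complexes, and the proteins that transcribe and process mitochondrial RNA, are encoded in the nucleus. Pieces of mitochondrial DNA have also been copied into nuclear chromosomes in the course of evolution, and a read from such a copy can be identical to a read from the mitochondrial gene.

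The libraries held from 11997104 (wild-type replicate 2) to 14481843 (knockout replicate 1) counted reads. Of the 37 genes on chromosome MT, 13 encode proteins, 2 are ribosomal RNAs and 22 are transfer RNAs. Only 15 of the 37 had enough counts to be tested, and 10 were listed at 0 in every library. All 10 mRNAs described here passed that filter, which uses the size of the groups but not which library is in which. The 3 protein-coding genes outside the set were too low: mt-Nd3 had 3 to 11 counts in a library, mt-Nd4l had 3 to 10 and mt-Atp8 had 2 to 6. The Tet2 gene gave 32.7, 34.2 and 34.0 CPM (read counts scaled to library size) in the libraries labelled Tet2 knockout. Under the wild-type label it gave 29.3, 27.9 and 30.7 CPM, which put the log2 difference at 0.20 (SE 0.070, adjusted p = 0.0159, edgeR's quasi-likelihood test). That call was lost without knockout replicate 2 (0.0553) or wild-type replicate 2 (0.0799), with total-count scaling (0.0591), in DESeq2 (0.0691) and with an assumed spread of 0.1 (0.35). The Tet2 count was thus not lower under the knockout label, and every direction given here is by label. A count over the whole gene does not check a deletion of part of it. Adgre1, which encodes the macrophage antigen F4/80, stood at 1301 ± 13.4 CPM (SD, n = 3) in the knockout-labelled and 759 ± 15.3 CPM in the wild-type-labelled libraries, so this defining macrophage marker was present in both groups.

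The sequences of 5 of the mRNAs are shown first beside their copies on chromosome 1, because the counts of these genes can only be read with the copies in view. The deposited table lists 7 such copy genes side by side on the minus strand of chromosome 1, between chr1:24611535 and chr1:24616197 (mm10). In the GENCODE M21 transcripts, each of the 7 matched its mitochondrial counterpart with 0 mismatches over the aligned stretch. The deposited coordinates of 22 of 22 genes compared were those of GENCODE M21. Bases shared exactly by a gene and its copy are in capitals, and all sequences run 5′ to 3′ on the gene's own strand. The first pair shows the start of mt-Co3, the gene that behaved unlike the others.
mt-Co3, plus strand, chrMT:8607-8666: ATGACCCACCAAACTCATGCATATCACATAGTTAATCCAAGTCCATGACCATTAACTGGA
Gm28437, minus strand, chr1:24613912-24613971: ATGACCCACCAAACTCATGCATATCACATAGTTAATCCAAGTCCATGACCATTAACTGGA
The copy of mt-Co3 ran on in this way from base 1 to base 783 of the 784 bases of the mitochondrial gene (99.9%). The same held for mt-Co2 and Gm28661, and for mt-Atp6 and Gm10925, shown by their first 60 bases. Their copies covered 681 of 684 and 678 of 681 bases (99.6% for both).
mt-Co2, plus strand, chrMT:7013-7072: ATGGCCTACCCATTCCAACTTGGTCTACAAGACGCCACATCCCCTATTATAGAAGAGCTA
Gm28661, minus strand, chr1:24615506-24615565: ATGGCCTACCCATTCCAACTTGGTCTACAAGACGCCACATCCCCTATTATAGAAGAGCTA
mt-Atp6, plus strand, chrMT:7927-7986: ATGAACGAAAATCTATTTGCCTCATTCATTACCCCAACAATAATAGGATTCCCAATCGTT
Gm10925, minus strand, chr1:24614592-24614651: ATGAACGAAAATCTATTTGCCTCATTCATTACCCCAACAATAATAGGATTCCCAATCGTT
For mt-Nd4 and mt-Co1 the copy was partial, and the windows below cross the point where it ends or begins. Gm28439 matched bases 1 to 876 of the 1378 bases of mt-Nd4 (63.6%), and Gm29216 matched bases 1067 to 1545 of the 1545 bases of mt-Co1 (31.0%).
mt-Nd4, bases 847 to 906, plus strand, chrMT:11013-11072: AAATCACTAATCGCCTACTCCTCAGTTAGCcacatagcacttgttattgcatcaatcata
Gm28439, last 30 bases, minus strand, chr1:24611535-24611564: AAATCACTAATCGCCTACTCCTCAGTTAGC
mt-Co1, bases 1037 to 1096, plus strand, chrMT:6364-6423: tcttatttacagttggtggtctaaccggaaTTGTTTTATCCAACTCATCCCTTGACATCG
Gm29216, first 43 bases, minus strand, chr1:24616155-24616197: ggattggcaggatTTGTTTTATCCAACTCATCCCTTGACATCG

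Each gene was then scored by how many of its 100-base stretches have no exact copy in any annotated transcript outside chromosome MT. This is a rough guide to where a read could be placed. This share was 100% for mt-Nd1, mt-Nd5, mt-Nd6 and mt-Cytb and 96.8% for mt-Nd2. It was 69.2% for mt-Co1 and 39.2% for mt-Nd4. It was 0.513% for mt-Co2, 0.146% for mt-Co3 and 0.515% for mt-Atp6, so nearly every stretch of those 3 genes also lies in a copy. The low untested genes mt-Nd3 (2.41%) and mt-Nd4l (1.52%) have such copies too. For mt-Atp8 the annotation holds no 100-base copy (100%). Its end, at chrMT:7969, overlaps the start of mt-Atp6 at chrMT:7927, which Gm10925 copies. A copy outside annotated transcripts was not looked for, for this or any other gene. With stretches of 50 bases the share fell to 92.4% for mt-Nd5, 91.8% for mt-Nd2 and 48.9% for mt-Co1. It stayed at 100% for mt-Nd1, mt-Nd6 and mt-Cytb. The read length and the treatment of reads that match several places are not given in the sources used here. How many reads of these genes were left out, or were counted in a copy, cannot be told from the counts.

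**Figure D1:**
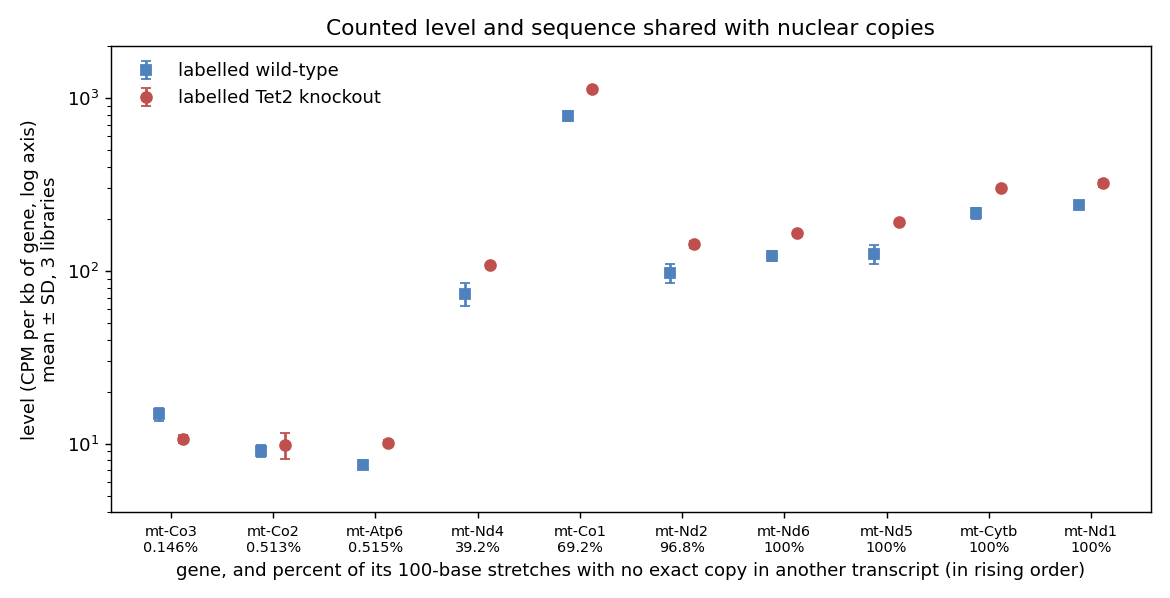
Counted level of each mitochondrial mRNA (CPM per kilobase, log axis, mean and SD of 3 libraries in each label). The genes are ordered by the percent of their 100-base stretches that have no exact copy in an annotated transcript outside chromosome MT. mt-Co2, mt-Co3 and mt-Atp6 sit together at under 1% and at 7.55 to 14.8 CPM per kilobase, below the 7 other mRNAs.

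The order given here is one of counted reads, and how many reads of mt-Co2, mt-Co3 and mt-Atp6 were left out is not known. Per kilobase of gene, mt-Co1 had the highest counted level of the 10 mRNAs. It stood at 1130 ± 24.8 CPM per kilobase in the knockout-labelled and 786 ± 50.3 in the wild-type-labelled libraries. The next were mt-Nd1 (321 ± 14.7 and 241 ± 12.7) and mt-Cytb (302 ± 8.0 and 215 ± 15.8). These neighbours overlapped in both groups, as mt-Cytb reached 229 CPM per kilobase in wild-type replicate 3 and mt-Nd1 only 227 in wild-type replicate 2. The lower 4 of this upper group were mt-Nd5 (191 ± 4.26 and 125 ± 15.4), mt-Nd6 (165 ± 5.58 and 122 ± 8.26), mt-Nd2 (142 ± 6.80 and 97.4 ± 12.3) and mt-Nd4 (108 ± 1.47 and 73.6 ± 11.1). Under the wild-type label mt-Nd5 and mt-Nd6 overlapped, and so did mt-Nd2 and mt-Nd4. The remaining 3, mt-Co3, mt-Co2 and mt-Atp6, lay between 7.08 and 15.9 CPM per kilobase in every library. They overlapped under the knockout label, while under the wild-type label mt-Co3 (14.8 ± 1.35) stood above mt-Co2 (9.12 ± 0.722) and mt-Atp6 (7.55 ± 0.452). When the length was counted only in stretches without a copy, mt-Nd4 stood at 298 ± 4.04 and 202 ± 30.6 CPM per kilobase, above mt-Nd5, mt-Nd6 and mt-Nd2. All counts of each gene were kept, so this order holds only if none came from a shared stretch, which was not tested. This measure leaves mt-Co2, mt-Co3 and mt-Atp6 with 3, 1 and 3 starting positions, and no level is given for them on it. As mt-Nd6 is on the opposite strand from the other 9 and the library kit as labelled does not mark strand, its reads cannot be told from antisense RNA of the other strand.

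**Figure D2:**
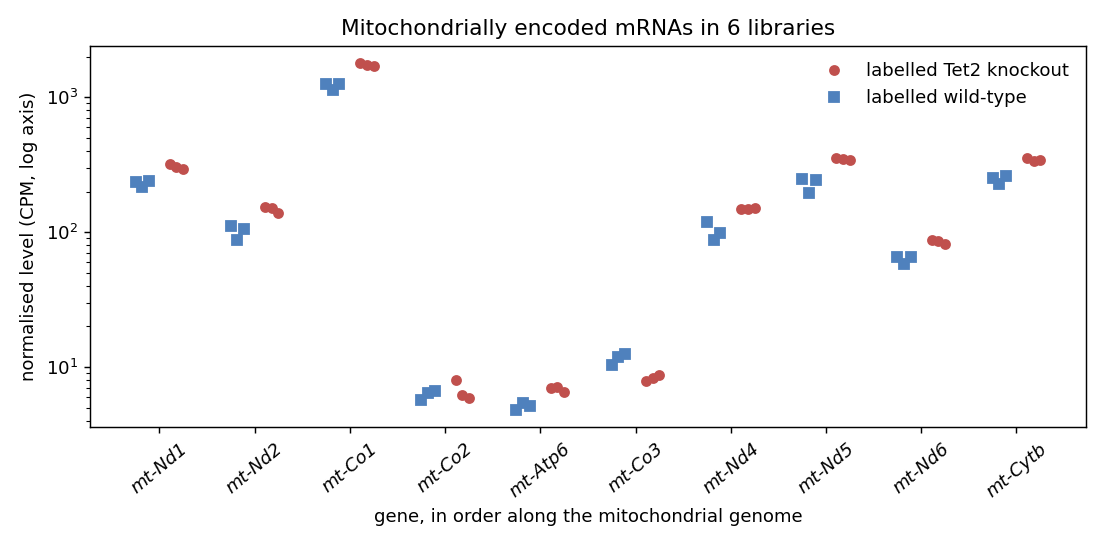
TMM-scaled level (CPM, log axis) of the 10 mitochondrial mRNAs, with 1 point for each of the 6 libraries, coloured by label. The groups do not overlap for 9 of the 10 mRNAs: 8 are higher in the knockout-labelled libraries, mt-Co3 is lower, and mt-Co2 overlaps.

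In the comparison of the labels, 8 of the 10 mRNAs were higher in the knockout-labelled libraries, mt-Co3 was lower and mt-Co2 was not called. Over all 13175 tested genes, 40.9% were called in either direction (21.6% higher and 19.2% lower), at an adjusted p under 0.05 in edgeR's quasi-likelihood test with Benjamini-Hochberg adjustment, which gives every adjusted p below. The median log2 difference was 0.46 over the 10 mRNAs, with a range from -0.48 to 0.61, against a median of 0.00 (-0.0031) over all tested genes. The 3 libraries of each label did not overlap for 8 mRNAs that were higher and 1 that was lower. Over all tested genes, 24.8% did not overlap and were higher, and 23.0% did not overlap and were lower. With total-count scaling in place of TMM the calls over all genes turned from 2852 higher and 2533 lower to 2354 higher and 3284 lower, while the calls of the 10 mRNAs stayed at 8 and 1. In bulk RNA, more or fewer mitochondria or cells that hold them cannot be told apart from more or less RNA per mitochondrion or cell.

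The 5 complex I mRNAs were higher under the knockout label. For mt-Nd5, a core membrane subunit of the proton-pumping arm, the knockout-labelled libraries gave 355, 351 and 340 CPM and the wild-type-labelled ones 248, 196 and 242 CPM. Every knockout-labelled library was above every wild-type-labelled one, and wild-type replicate 2 was the lowest. The log2 difference was 0.61 (SE 0.098, adjusted p = 0.00858), the highest of the 10. For mt-Nd1, a core membrane subunit at the base of the arm, the values were 322, 305 and 294 CPM against 236, 217 and 239 CPM, with a log2 difference of 0.41 (SE 0.032, adjusted p = 1.87e-19). The groups were again apart, by more than the range within either.

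The mt-Nd2 mRNA, for another proton-pumping subunit, stood at 153, 150 and 140 CPM against 111, 86.8 and 105 CPM. Its log2 difference was 0.54 (SE 0.095, adjusted p = 0.00586). The mt-Nd4 mRNA, also for a pumping subunit, stood at 149, 147 and 151 CPM against 118, 87.8 and 98.4 CPM. The wild-type-labelled values of mt-Nd4 spread more widely (SD 15.3) than the knockout-labelled ones (SD 2.03). The log2 difference of mt-Nd4 was 0.55 (SE 0.11, adjusted p = 0.0169), and the call was lost without knockout replicate 1, 2 or 3 or wild-type replicate 3, with adjusted p from 0.0545 to 0.0716. Counted together with its copy Gm28439, mt-Nd4 gave a log2 difference of 0.55 (adjusted p = 0.0134).

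For mt-Nd6, the one mRNA copied from the other strand and also a membrane subunit of complex I, the libraries gave 88.0, 86.0 and 82.3 CPM against 65.8, 58.3 and 65.5 CPM. The log2 difference was 0.43 (SE 0.048, adjusted p = 2.8e-13), between those of mt-Nd1 and mt-Nd2. As the reads do not mark strand, this is the count over the mt-Nd6 gene from both strands together.

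The complex III mRNA mt-Cytb, for the subunit that carries the quinone-binding sites, gave 356, 339 and 341 CPM under the knockout label and 251, 226 and 262 CPM under the wild-type label. No wild-type-labelled library reached the knockout-labelled ones. The log2 difference was 0.49 (SE 0.034, adjusted p = 9.96e-17), and mt-Cytb has no annotated copy.

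The 3 complex IV mRNAs did not move together. For mt-Co1, the catalytic subunit of cytochrome c oxidase, the libraries gave 1787, 1739 and 1712 CPM under the knockout label and 1261, 1125 and 1258 CPM under the wild-type label. The lowest knockout-labelled value lay far above the highest wild-type-labelled one. The log2 difference was 0.52 (SE 0.038, adjusted p = 2.19e-07), and it was also 0.52 (adjusted p = 1.59e-07) with the copy Gm29216 added. For mt-Co2, which encodes the subunit that receives electrons from cytochrome c, the values were 7.99, 6.24 and 5.89 CPM against 5.68, 6.43 and 6.61 CPM. Those values overlapped, and the log2 difference of 0.11 (SE 0.15, adjusted p = 0.601) was not called.

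The mt-Co3 mRNA, for the subunit without a metal centre, ran the other way. It stood at 7.92, 8.30 and 8.77 CPM under the knockout label and 10.4, 11.9 and 12.5 CPM under the wild-type label. All 3 knockout-labelled libraries were below all 3 wild-type-labelled ones. The log2 difference was -0.48 (SE 0.12, adjusted p = 0.000607), from 113, 117 and 116 counts against 147, 144 and 174. The complex V mRNA mt-Atp6 stood at 7.01, 7.09 and 6.57 CPM against 4.82, 5.44 and 5.17 CPM. These groups did not overlap, and the log2 difference was 0.43 (SE 0.15, adjusted p = 0.0193) on 66 to 100 counts per library. The mt-Atp6 call was lost in DESeq2 (adjusted p = 0.0796) and with an assumed spread of 0.1 (0.0906). It was also lost without knockout replicate 1 (0.0534), knockout replicate 2 (0.0617) or wild-type replicate 1 (0.0777).

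**Figure D3:**
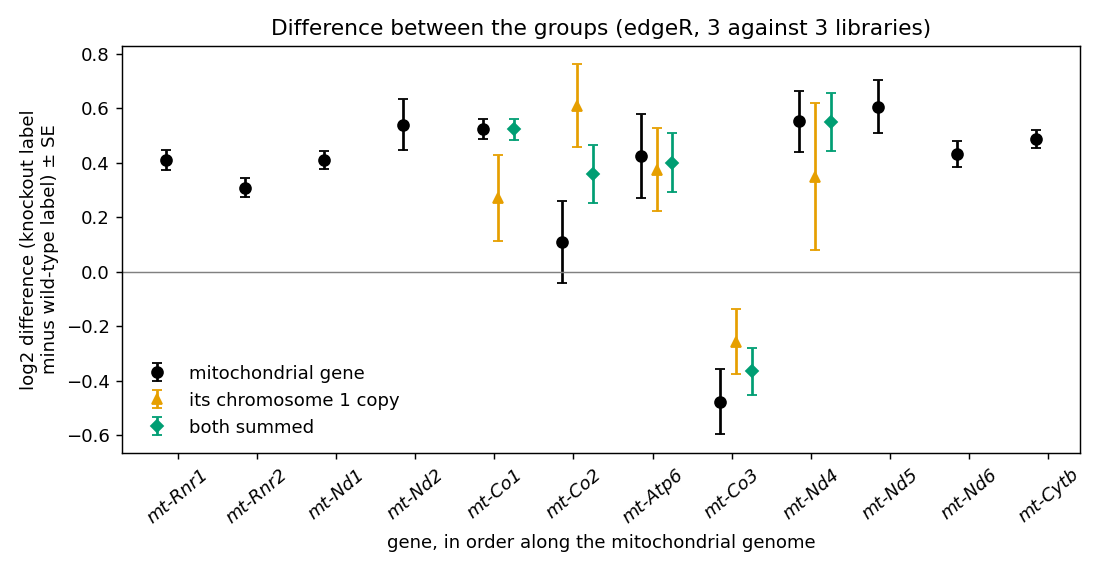
Log2 difference, knockout label minus wild-type label, with its SE for the 10 mitochondrial mRNAs and the 2 ribosomal RNAs (circles), for the chromosome 1 copies of 5 of them (triangles) and for gene and copy summed (diamonds). The mRNAs run from mt-Co3 at -0.48 to mt-Nd5 at 0.61, and mt-Co3, its copy and their sum are the only points below 0.

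The chromosome 1 copies Gm28661, Gm10925, Gm28437 and Gm29216 were at levels like those of mt-Co2, mt-Co3 and mt-Atp6. Lower levels were counted for Gm28439 (mean 2.26 CPM under the knockout and 1.79 under the wild-type label) and Gm28438 (1.25 and 1.72). The untested Gm10222 was lower still (0.587 and 0.447). Gm28661, the copy of mt-Co2, gave 7.92, 7.94 and 7.78 CPM under the knockout label and 4.19, 6.02 and 5.39 CPM under the wild-type label. All knockout-labelled values lay above the wild-type-labelled ones, with a log2 difference of 0.61 (SE 0.15, adjusted p = 0.000482). Gm10925, the copy of mt-Atp6, was also higher (log2 difference 0.37, SE 0.15, adjusted p = 0.0397). That call was lost with upper-quartile or total-count scaling, in DESeq2, with no filter and with an assumed spread (adjusted p from 0.0520 to 0.144), and without knockout replicate 1 or 2 or wild-type replicate 1 or 2 (adjusted p from 0.0706 to 0.183). Gm28437, the copy of mt-Co3, gave 8.27, 10.1 and 9.14 CPM against 12.3, 10.2 and 10.3 CPM. Its groups did not overlap, but the log2 difference of -0.26 (SE 0.12) had an adjusted p of 0.0785. Without knockout replicate 2 that p was 0.0458. Gm28439, Gm29216 and Gm28438 had log2 differences of 0.35, 0.27 and -0.46 and were not called (adjusted p = 0.317, 0.170 and 0.253). Without wild-type replicate 1, Gm29216 had a log2 difference of 0.46 and an adjusted p of 0.0410.

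Since a gene and its exact copy cannot be told apart by these reads, their counts were also summed, a choice made after the data were seen. The mt-Co2 sum was 227, 200 and 181 counts under the knockout label and 139, 151 and 167 under the wild-type label, which do not overlap. It gave a log2 difference of 0.36 (SE 0.11, adjusted p = 0.00428), so that the sum passed the test, which mt-Co2 alone had not. The mt-Co3 sum was 231, 260 and 237 against 320, 268 and 318 counts. It remained lower, with a log2 difference of -0.37 (SE 0.086, adjusted p = 0.000236). The mt-Atp6 sum was 211, 198 and 172 against 144, 126 and 155 counts, with a log2 difference of 0.40 (SE 0.11, adjusted p = 0.00152). With the sums in place, 9 of the 10 rows were higher and 1, that of mt-Co3, was lower. A sum is not the level of the mRNA alone. It also does not bring back any reads left out for matching both places. The sums for mt-Nd3 (log2 difference -0.17, adjusted p = 0.655) and mt-Nd4l (0.48, adjusted p = 0.324) were not called.

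These sums hold the chromosome 1 copies only, and 3 more annotated genes, side by side on chromosome 2, share exact 100-base stretches with the set. Gm13340, which shares such stretches with mt-Co1, gave 91, 108 and 87 counts under the knockout label and 50, 59 and 45 under the wild-type label. It was higher, with a log2 difference of 0.84 (SE 0.17, adjusted p = 1.62e-05). Gm13341, which shares stretches with mt-Co2, gave 53, 57 and 43 against 29, 38 and 40 counts. Its groups did not overlap, but the log2 difference of 0.46 (SE 0.21) had an adjusted p of 0.0774. Gm13339, which shares stretches with mt-Nd2, had 0 to 4 counts in a library and was not tested. With these 3 added to the sums as well, also after the data were seen, the log2 difference was 0.52 for mt-Co1 (adjusted p = 1.29e-08), 0.38 for mt-Co2 (0.000842) and 0.54 for mt-Nd2 (0.00734). Again 9 of the 10 rows were higher and that of mt-Co3 was lower.

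The summed count of chromosome MT was 0.366%, 0.355% and 0.349% of all counts in the knockout-labelled libraries. It was 0.275%, 0.240% and 0.269% in the wild-type-labelled libraries. Each knockout-labelled library was above each wild-type-labelled one, and wild-type replicate 2 was the lowest. The means were 0.357% ± 0.00865 and 0.261% ± 0.0186 (SD, n = 3), a ratio of 1.37. The 95% Wilson intervals, which cover counting error only, were at most 0.00316 percentage points to either side. No test was made of this sum, and an exact permutation test of 3 against 3 could not go below p = 0.1. The difference of 0.0954 percentage points ranged from 0.0848 to 0.102 over the alternatives, leaving out each library included.

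Within the mitochondrial counts, mt-Co1 made up 48.1%, 48.3% and 48.3% in the knockout-labelled libraries and 46.6%, 47.4% and 47.4% in the wild-type-labelled ones. The labels did not overlap, but the means of 48.2% and 47.1% were 1.11 percentage points apart, against a 95% interval of up to 0.577 to either side of a single value. With the summed counts of the 10 mRNAs as the denominator, which leaves out the ribosomal RNAs, they were 0.402 percentage points apart. The share of mt-Nd5 was 9.56%, 9.76% and 9.60% against 9.15%, 8.27% and 9.13%. It too was higher in each knockout-labelled library, and wild-type replicate 2 stood lowest. The share of mt-Nd1 ran the other way, at 8.65%, 8.48% and 8.29% against 8.72%, 9.13% and 9.02%. Its lowest wild-type-labelled and highest knockout-labelled shares differed by less than the interval of up to 0.333 percentage points. The share of mt-Nd6 was also lower, 2.36% against 2.45% on average, and the labels did not overlap. Its highest knockout-labelled share (2.39%) and lowest wild-type-labelled share (2.43%) differed by less than the interval of up to 0.179 percentage points. All these intervals are for the share of a single library and do not measure the error of a difference between means.

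The shares here and above are of counted reads. How many reads of mt-Co2, mt-Co3 and mt-Atp6 were left out or counted in a copy is not known. The shares therefore do not give the make-up of the mitochondrial RNA itself. The share of mt-Co3 showed the clearest separation of the 10. It was 0.213%, 0.231% and 0.247% under the knockout label and 0.386%, 0.50% and 0.471% under the wild-type label, with means of 0.230% ± 0.0172 and 0.452% ± 0.0595 and a ratio of 0.509. The gap between the labels was wider than the interval of up to 0.0817 percentage points. The shares of mt-Nd2, mt-Nd4, mt-Co2, mt-Cytb and mt-Atp6 overlapped between labels. Those of mt-Cytb were near equal, at 9.54% and 9.56%. Together the 10 mRNAs made up 87.1% ± 0.143 and 85.7% ± 0.723 of the mitochondrial counts, and the 2 ribosomal RNAs 12.6% ± 0.152 and 13.9% ± 0.747. Both pairs were without overlap. When libraries were scaled by the summed mitochondrial count, none of the 10 was called higher (0), and mt-Co3 (log2 difference -0.97) and mt-Co2 (-0.38, adjusted p = 0.0267) were called lower. That scaling moves the median of all tested genes to -0.49.

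**Figure D4:**
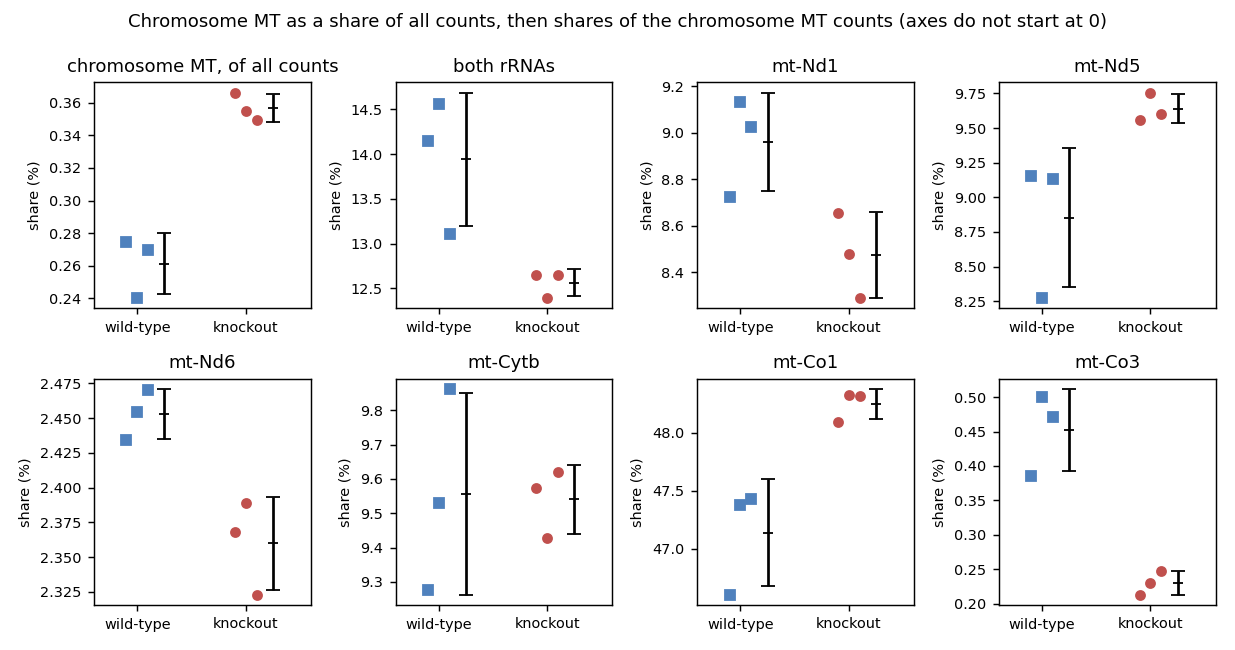
The upper left panel gives the summed counts of chromosome MT as a percent of all counts in each library. The other panels give the shares of the rRNAs and of 6 mRNAs in the summed mitochondrial counts (percent), by label, with the mean and SD of 3 libraries; the axes do not start at 0. The mitochondrial total and mt-Nd5 are higher, and mt-Co3 lower, in every knockout-labelled library.

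Across the 6 libraries, each mRNA's scaled level was set against the mean of the 9 others, as a description. Pearson's r was 0.998 for mt-Nd1, 0.990 for mt-Cytb, 0.989 for mt-Nd6, 0.986 for mt-Co1, 0.970 for mt-Nd5 and 0.961 for mt-Nd2. It was 0.894 for mt-Nd4, 0.884 for mt-Atp6, 0.329 for mt-Co2 and -0.938 for mt-Co3. The points are 6 libraries in 2 labels, so these values mostly hold the difference between labels. Of the 8895 nuclear genes of at least 10 CPM, the 5 whose pattern was most like the mean of the 10 were Plxna2 (r 0.9999), Rap1gds1 (0.9972), 6430548M08Rik (0.9961), Zfp710 (0.9958) and Sdc3 (0.9956). Plxna2, a semaphorin receptor, stood at 92.0 ± 4.23 and 71.4 ± 3.55 CPM, and Sdc3, a heparan sulfate proteoglycan, at 732 ± 15.2 and 605 ± 17.5 CPM.

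Of the other mitochondrial RNAs, the small ribosomal RNA mt-Rnr1 was higher under the knockout label, at 155 ± 7.27 against 116 ± 3.11 CPM (log2 difference 0.41, SE 0.038, adjusted p = 3.21e-17). The large ribosomal RNA mt-Rnr2 was also higher, at 300 ± 6.73 against 242 ± 18.3 CPM (log2 difference 0.31, adjusted p = 6.26e-11). The mt-Rnr2 call was lost with an assumed spread of 0.1 (edgeR adjusted p = 0.0625). Of the 3 tested transfer RNAs, the proline tRNA mt-Tp was higher (8.44 ± 0.764 against 6.16 ± 1.28 CPM, log2 difference 0.44, adjusted p = 0.00831). That call was lost without wild-type replicate 2 (adjusted p = 0.119) or knockout replicate 2 (0.0532), in DESeq2 (0.0513) and with an assumed spread of 0.1 (0.0514). The asparagine tRNA mt-Tn and the cysteine tRNA mt-Tc were not called (log2 differences 0.30 and 0.69, adjusted p = 0.527 and 0.191). All 3 of these genes are on the minus strand, like mt-Nd6. As the reads do not mark strand, their counts cannot be told from RNA of the other strand.

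Of the nuclear genes that serve these mRNAs, more were lower than higher under the knockout label. In 6 lists of mitochondrial gene expression, 81 genes were tested, of which 5 were higher (6.17%, against 21.6% of all tested genes) and 22 lower (27.2%, against 19.2%), with a median log2 difference of -0.09. Among 10 transcription genes, 0 were higher and 2 lower, and the remaining 8 did not pass the test. These 2 were Mterf1a, a factor that binds mitochondrial DNA (2.39 ± 0.303 against 3.59 ± 0.357 CPM, log2 difference -0.59), and Tfam, which packages the mitochondrial genome and activates its promoters (23.6 ± 2.04 against 27.0 ± 2.22 CPM, -0.19, adjusted p = 0.0405). Both calls were lost without any 1 of knockout replicates 1 and 2 and wild-type replicates 2 and 3. Among 19 genes of RNA processing and modification, 7 were lower, led by the ribosomal RNA methyltransferase Mrm1 (15.7 ± 0.780 against 25.5 ± 1.10 CPM, -0.70) and the tRNA-modifying enzyme Cdk5rap1 (-0.43). The one that was higher was Hsd17b10, a subunit of the RNase P that cuts mitochondrial transcripts (0.17, adjusted p = 0.0416), a call that held only without knockout replicate 1 among the libraries left out in turn.

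Of 14 genes for the stability and decay of mitochondrial RNA, 3 were lower and 0 higher. Of all tested genes, 19.2% were lower and 21.6% higher. The lower genes of this list and of the DNA replication list below were near that share. Grsf1, a protein of the mitochondrial RNA granules, stood at 89.4 ± 3.58 against 106 ± 0.383 CPM (log2 difference -0.24). Angel2 had a log2 difference of -0.23. Of 15 genes of mitochondrial DNA replication and maintenance, 3 were lower and 0 higher, led by the thymidine kinase Tk2 and the exonuclease Mgme1 (both -0.33), of which Mgme1 was not called without wild-type replicate 1. Of 12 translation factors, Gfm2 (0.22) and Gfm1 (0.14) were higher and 0 were lower. Both belong to the mitochondrial elongation factor G family, and the Gfm1 call was lost without knockout replicate 1, 2 or 3 or wild-type replicate 3. Among 11 biogenesis regulators, 2 were higher, the coactivator Ppargc1b (6.04 ± 0.340 against 3.88 ± 0.473 CPM, 0.64) and the nuclear receptor Esrra (0.28). The 7 that were lower were led by the transcription factor Yy1 (-0.23) and by Gabpb1 (-0.49), a subunit of nuclear respiratory factor GABP.

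The nuclear-encoded subunits of the complexes that hold these proteins had a median log2 difference near that of all tested genes. Of 77 tested subunits, 14 were higher (18.2%, against 21.6% of all tested genes), 7 were lower (9.09%, against 19.2%) and 56 were not called, with a median log2 difference of 0.03. In complex I, 5 of 36 were higher, led by Ndufa10 (73.6 ± 2.55 against 63.2 ± 2.03 CPM, 0.22) and Ndufv3 (0.20), and 4 were lower, led by Ndufa6 (-0.22) and Ndufa7 (-0.19). In complex II, which has no mitochondrially encoded subunit, 1 of 4 was higher, the flavoprotein Sdha (0.08, adjusted p = 0.0341). In complex III, 1 of 9 was higher (Uqcrq, 0.11) and 1 lower, cytochrome c1 (Cyc1, 92.4 ± 4.56 against 109 ± 4.27 CPM, -0.24). In complex IV, 3 of 12 were higher, led by Ndufa4 (0.28) and Cox7b (0.17), and Cox6a1 was lower (-0.10). In complex V, 4 of 16 were higher, led by Atp5a1 (696 ± 2.83 against 616 ± 26.4 CPM, 0.18) and Atp5k (0.25), and Atp5d was lower (-0.19). Atp5o was among the 16 tested. A further row of that name (chr16:91684398-91926982, length 530 bases) was at 0, which does not show that the gene was silent. Of 12 markers of mitochondrial mass, 2 were higher, the citrate synthase gene Cs (0.13) and the outer membrane channel gene Vdac1 (0.10). The 3 that were lower were led by the chaperonin gene Hspd1 (-0.13) and Phb2 (-0.15). Some of these small differences rested on single libraries: Sdha was not called without knockout replicate 2 or 3 or any wild-type library, and Uqcrq without knockout replicate 1 or 3 or wild-type replicate 3. Cox6a1 was lost without knockout replicate 1 or wild-type replicate 2, Ndufv3 and Cox7b without wild-type replicate 3, Ndufa6 without knockout replicate 3, Ndufa7 without wild-type replicate 2 and Vdac1 without wild-type replicate 1.

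**Figure D5:**
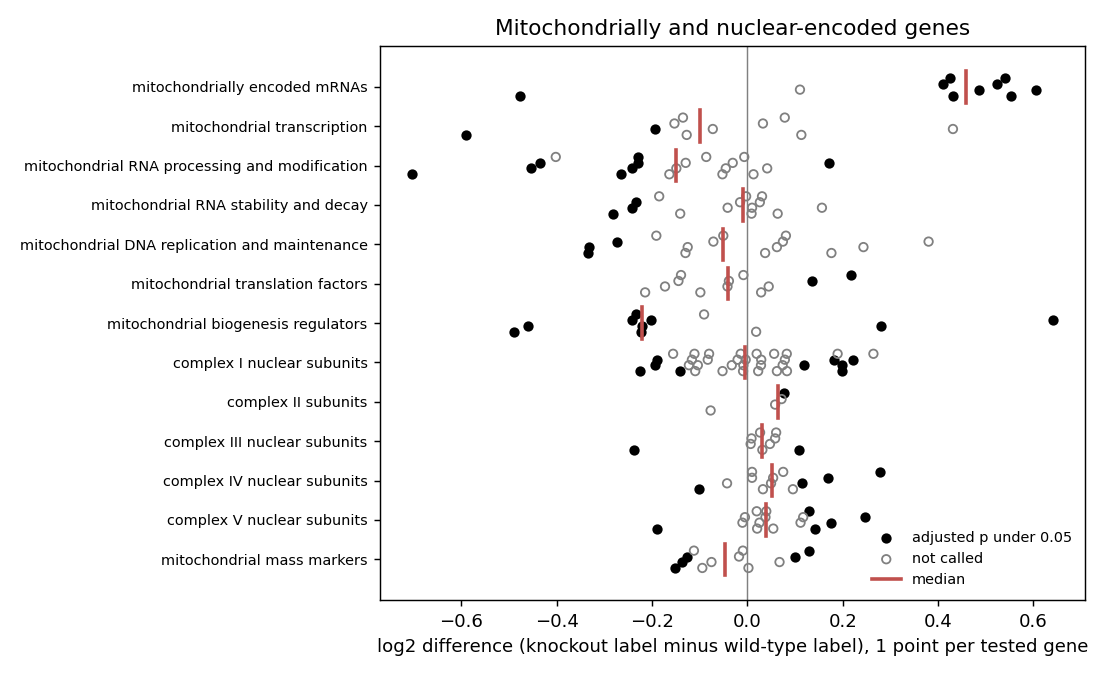
Log2 difference, knockout label minus wild-type label, of every tested gene in the mitochondrial lists except Atp5o, with the median of each list. The median of the 10 mitochondrial mRNAs is 0.46, and the medians of the nuclear lists run from -0.22 (biogenesis regulators) to 0.07 (complex II).

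The sums of some other RNA lists also differed between the labels, and their part in the difference of the mitochondrial mRNAs was not tested. The nuclear-retained RNAs summed to 367 to 395 CPM under the knockout label and 313 to 333 CPM under the wild-type label. Of the 4 tested, Malat1 (287 ± 14.0 against 224 ± 5.85 CPM, log2 difference 0.36) and Kcnq1ot1 (0.68) were higher, and Neat1 (-0.16) and Meg3 (-0.92) were lower. The Meg3 call, at 0.912 ± 0.347 against 1.72 ± 0.420 CPM, was lost without knockout replicate 2 or 3 or wild-type replicate 1 or 3. A list chosen for RNAs without a poly(A) tail summed to 85.9 to 94.0 CPM against 119 to 124 CPM. Most of it was Hist1h1c (48.7 ± 1.82 against 62.4 ± 2.59 CPM, -0.36) and Hist1h2bc (34.9 ± 1.75 against 52.6 ± 0.970 CPM, -0.59), both lower. Whether these histone transcripts carried a tail was not measured. The other 2 of 4, Rn7sk (-0.03, adjusted p = 0.918) and Hist1h4h (-0.87, adjusted p = 0.0709), were not called, and Rmrp and Rpph1 were at 0 in all libraries.

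Markers of other cell types also differed, and their part was likewise not tested. The 10 macrophage markers summed to 7090 to 7360 CPM under the knockout label and 6810 to 7220 CPM under the wild-type label. Of these, 5 were higher, led by Adgre1 (0.78) and the mannose receptor gene Mrc1 (1.06), and 4 were lower, among them Cd14 (-0.18). The 8 fibroblast and stromal markers summed to 6510 to 6670 CPM against 6780 to 7250 CPM, and none was at 0. Of the 8, 1 was higher, 4 were lower and 3 were not called. Of all tested genes, 21.6% were higher and 19.2% lower. Col1a1, a collagen gene that macrophages are not known for, stood at 3190.2 ± 44.0 against 3448 ± 162 CPM (-0.11), and the matrix gene Dcn was lower too (-0.25), while Col3a1 was higher (0.11). The other 2 that were lower, named after their values were seen, were Lum (1.14 ± 0.481 against 2.60 ± 0.792 CPM, -1.15) and Col1a2 (-0.09). The share of stromal cells in these cultures was not measured. Neutrophil markers summed to 1.42 to 1.81 against 1.08 to 1.57 CPM, with Ly6g and Retnlg at 0 and the single tested gene, S100a8, not called. Dendritic cell markers summed to 5.40 to 6.67 against 3.26 to 4.81 CPM, with Xcr1 higher (1.06) and Siglech at 0. Lymphocyte markers summed to at most 0.280 CPM in any library, with Cd3g and Nkg7 at 0. Erythroid and megakaryocyte markers summed to 123 to 128 against 109 to 127 CPM, nearly all of it Pf4 (0.10, adjusted p = 0.0427; not called without knockout replicate 1 or 3 or wild-type replicate 1 or 3, nor with RLE, upper-quartile or total-count scaling, DESeq2, limma-voom, no filter or an assumed spread), with the globin genes Hba-a1, Hbb-bs and Hbb-bt at 0.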

How the data were processed

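Per the labels' protocols, an RNeasy Plus Mini kit was used for extraction and a NEBNext Ultra RNA kit for the libraries. The authors deposited raw read counts for each gene, made with fastp, STAR and featureCounts on mm10, per the submitters' processing notes. Versions, strand and multi-mapping settings are not given in the sources used here. The 10 mRNAs and all gene lists were chosen with earlier results of these data known. Every row named a gene, and all count columns matched a sample.

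The counts were fitted with edgeR 4.0.16 (R 4.3.3): filterByExpr (minimum count 10, 13175 genes kept), TMM scaling, robust quasi-likelihood test with the label as the only term, prior count 0.125, Benjamini-Hochberg adjustment over all tested genes and a threshold of 0.05. CPM are TMM-scaled. Wilson intervals are at 95%. Total counts of 11997104 to 14481843 per library make 3 counts worth 0.21 to 0.247 CPM. Replicates of a label differed by more than sampling noise (variance 1.55 to 2.32 times that of counting), with the pairs holding wild-type replicate 2 at 2.30 and 2.32.

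Copies were aligned with Biopython 1.88 on GENCODE M21 transcripts, with mismatches penalised so that an aligned stretch ends where the bases begin to differ. A copy-free stretch is a start position whose next 100 bases are in no transcript outside chromosome MT on either strand. Named genes are the 10 mRNAs, other chromosome MT rows with a mean of at least 10 counts, tested chromosome 1 copies, Tet2, up to 2 called genes per direction of each list with the smallest p (or the 2 highest where none was called), and the 5 nuclear genes most like the members. Names beyond these (mt-Nd3, mt-Nd4l, mt-Atp8, the chromosome 2 copies and genes at 0) were added after their values were seen. Some marker genes are not reported here. Alternatives were other scalings (RLE, upper quartile, total count, mitochondrial count), DESeq2 1.42.0, limma-voom (limma 3.58.1), other filters, protein-coding genes only, an assumed spread of 0.1, a replicate block, other denominators, leaving out each library, and summing each gene with its chromosome 1 copy or with every annotated copy.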

Additional observations from a re-analysis of the deposited data

How the results depend on the processing

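Of the 10 mRNAs, 1 was lower and 8 or 9 higher in most alternatives, with 9 only where copies were summed in. The exceptions were DESeq2 and the assumed spread of 0.1 (7 higher in each), leaving out 1 library (6 to 8 higher, with 6 without knockout replicate 1 or 2) and scaling by the summed mitochondrial count (0 higher and 2 lower). By construction that scaling sets the summed mitochondrial RNA equal between libraries. It turned the log2 differences of mt-Nd1 (-0.080), mt-Nd6 (-0.055), mt-Co2 (-0.38), mt-Cytb (-0.0023), mt-Atp6 (-0.064), mt-Rnr1 (-0.084), mt-Rnr2 (-0.18), mt-Tp (-0.037), Gm10925 (-0.11), Gm28439 (-0.14), Gm29216 (-0.22) and Tet2 (-0.29). Nuclear genes turned by the same scaling were Hsd17b10 (-0.32), Gfm2 (-0.27), Gfm1 (-0.36), Esrra (-0.21), Ndufa10 (-0.27), Ndufv3 (-0.29), Sdha (-0.41), Uqcrq (-0.39), Ndufa4 (-0.21), Cox7b (-0.33), Atp5a1 (-0.32), Atp5k (-0.24), Cs (-0.36), Vdac1 (-0.39), Malat1 (-0.13), Col3a1 (-0.38) and Pf4 (-0.40). With it the copies had 0 higher and 2 lower, the respiratory chain lists 0 and 76, and the gene expression lists 0 and 75.

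Of 2 copies called higher, 1 passed with upper-quartile or total-count scaling, DESeq2, no filter or an assumed spread of 0.1, and 1 (without knockout replicate 1 or 2 or wild-type replicate 2) to 2 passed without 1 library. With total-count scaling 1 copy was lower, and 0 to 1 (without knockout replicate 2) without 1 library. The respiratory chain count of 14 higher was 9 with upper-quartile scaling or no filter, 6 with total-count scaling or DESeq2, 0 with the assumed spread and 7 (without wild-type replicate 1 or 3; 9 without knockout replicate 2) to 15 without 1 library. Its 7 lower were 13 with total-count scaling, 4 with DESeq2, 0 with the assumed spread and 3 (without wild-type replicate 2; 4 without knockout replicate 3) to 8 without 1 library. The gene expression count of 5 higher was 3 with upper-quartile or total-count scaling, DESeq2 or no filter, 1 with the assumed spread, and 3 (without knockout replicate 2 or 3 or wild-type replicate 3) to 4 without 1 library; its 22 lower were 4 with the assumed spread. The cause of these shifts was not tested.

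The share of mt-Cytb in mitochondrial counts turned to 0.0082 percentage points with the copies in the denominator and ran from -0.15 to 0.14 without 1 library; that of mt-Atp6 ran from -0.022 to 0.0037. The cause was not tested. Counts near 100 limit mt-Co2, mt-Co3 and mt-Atp6. Same-numbered libraries did not deviate together (correlations 0.0037, -0.0065 and -0.021). With a replicate block, 8 mRNAs were higher and 1 lower, and mt-Nd4 had a log2 difference of 0.56 (edgeR adjusted p = 1.06e-05), while the Pf4 call was lost.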
